A study of Mus musculus with 49 samples.

Results

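Single cells of the embryonic mouse kidney were divided by the immediate early gene Fos. The group was chosen by the Fos value itself: 19 of 49 cells with Fos at 1 RPKM or more are called Fos-positive and the other 30 Fos-negative (38.8% positive, exact 95% binomial interval 25.2 to 53.8%, counting error only). RPKM, the deposited unit, divides the reads of a gene by its length and by the reads mapped in that cell. The cells came from microdissected metanephric mesenchyme of Tg(Crym-EGFP)82Gsat mice on a mixed background and of both sexes, at 11.5 days post coitum (Theiler stage 19). All cells, Fos-positive and Fos-negative, carried the transgene, in which Crym sequences drive EGFP, and all were freed with trypsin and captured on a microfluidic chip. No untreated, undissociated or differently treated sample belongs to the design, and no embryo is named, so the 49 cells count as 1 sample and no p-values or standard errors were computed.

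Fos encodes a leucine zipper transcription factor that pairs with Jun proteins to form AP-1. It is an immediate early gene: its transcription starts within minutes of a growth factor, stress or calcium signal, needs no new protein synthesis, and fades quickly because the protein blocks its own promoter and the mRNA is short-lived. Warm enzymatic dissociation is known to switch on Fos, Jun and Egr1 in many tissues. Fibroblast growth factor and Gdnf signals that activate the same kinase cascade also act in the early kidney. Transcript levels alone do not separate these sources, and their part in the values below was not tested.

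Growth signals reach Fos through serum response factor and its CArG box and through cyclic AMP response elements (CRE), whose full form is TGACGTCA. The promoters of Fos and of a pair of immediate early genes described below, Dusp1 and Ppp1r15a, are shown because their windows hold this element or its TGACG core. They were picked after the values and the motif matches were seen. Each window is RefSeq sequence of build GRCm38.p6 on the gene's own strand, from 250 bases before to 50 bases after the gene start. Capitals mark TGACGTCA and the core TGACG or its reverse complement CGTCA.
Fos, chr12:85473640-85473939, + strand: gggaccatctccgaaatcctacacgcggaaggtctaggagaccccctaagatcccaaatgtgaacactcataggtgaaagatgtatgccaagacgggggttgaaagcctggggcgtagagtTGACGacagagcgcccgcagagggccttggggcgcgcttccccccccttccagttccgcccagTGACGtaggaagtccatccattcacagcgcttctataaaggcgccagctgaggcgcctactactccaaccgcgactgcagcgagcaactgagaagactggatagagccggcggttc
Dusp1, chr17:26508423-26508722, - strand: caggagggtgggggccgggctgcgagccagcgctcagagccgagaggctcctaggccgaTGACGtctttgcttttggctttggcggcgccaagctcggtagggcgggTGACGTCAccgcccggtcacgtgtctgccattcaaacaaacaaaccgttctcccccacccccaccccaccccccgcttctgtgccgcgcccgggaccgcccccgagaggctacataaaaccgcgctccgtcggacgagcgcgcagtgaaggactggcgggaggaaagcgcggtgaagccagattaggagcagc
Ppp1r15a, chr7:45526219-45526518, - strand: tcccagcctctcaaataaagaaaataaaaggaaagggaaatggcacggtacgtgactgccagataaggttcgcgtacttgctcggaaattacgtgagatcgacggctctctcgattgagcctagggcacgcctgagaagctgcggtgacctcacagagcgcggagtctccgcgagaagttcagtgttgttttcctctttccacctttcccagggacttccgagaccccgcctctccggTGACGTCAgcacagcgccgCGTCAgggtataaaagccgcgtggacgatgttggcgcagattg
The Fos window held a core at -129 and another at -66, Dusp1 held the full element at -143 and Ppp1r15a held it at -12, counted from the gene start. Of 53 immediate early genes in the table, 41 had at least 1 window, some of them several; 6 of the 41 held TGACGTCA in any of their windows, 25 a core on either strand, 3 the AP-1 site TGANTCA and 4 a CArG box. Counted in the same way per gene, 2.03% of 27025 genes held TGACGTCA, 23.0% a core, 8.97% an AP-1 site and 1.81% a CArG box. Per window of 300 bases, over 32544 windows, the shares were 1.80%, 20.9%, 7.79% and 1.64%. A full element contains cores on both strands, so those counts overlap. The Fos window held no CArG box, and sequence beyond the windows was not searched. Egr1, Ier2, Cyr61 and Ctgf were among the genes without a window. The matches are letters in a window and carry no information on binding in these cells.

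Fos varied widely among the Fos-positive cells and was nearly missing from the others. In the Fos-positive cells it stood at 4.43 RPKM in the lowest, 47.2 in the median and 297 in the highest cell; in the Fos-negative cells 26 were listed at 0 and 4 lay between 0.275 and 0.693 RPKM (gene ID 14281; chromosome 12, 86814851 to 86818219 in mm9). The highest were cell 11 at 297 RPKM, cell 14 at 222, cell 13 at 140, cell 20 at 139 and cell 39 at 109. Just inside the threshold lay cell 38 at 4.43 and cell 7 at 5.62 RPKM, and just outside it cell 1 at 0.693 RPKM. Cells 18, 30, 21 and 42 came next above cell 7, at 5.71 to 6.70 RPKM. These values chose the groups and describe them only.

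The gap is wide in reads as well as in RPKM, with 1 exception. The nonzero Fos values, scaled by each cell's relative depth, fell on multiples of a smallest step, taken here as 1 read: 19 of 23 lay within 0.02 of a whole number, and 1 step was 0.259 RPKM in the median cell. In 18 Fos-positive cells Fos held 18 to 1231 steps. Cell 7, a library at 0.0462 of the median depth, passed the threshold on 1 step, as many as in the Fos-negative cells 6 and 33. Cell 7 was therefore also counted as Fos-negative, which left the numbers of higher and lower genes, the shares by cell identity and the list medians within the tolerances used here (a factor of 1.5 for counts of genes, 0.25 for medians and the counting interval for shares), although the stroma median was 0.33 in place of 0.50 and the nephron progenitor median 0.20 in place of 0.06. Cell 3, Fos-negative, was the other shallow library at 0.0346 of the median depth, and there a 0 says little. All other cells lay between 0.693 and 1.52 of the median depth.

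**Figure D1:**
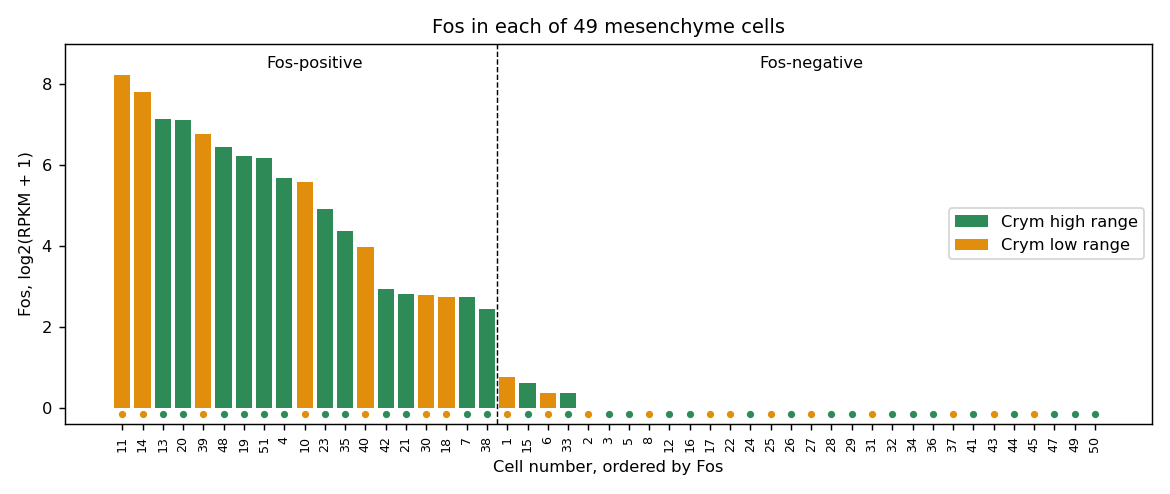
Fos in each cell as log2(RPKM + 1), with the 19 Fos-positive cells left of the dashed line and the 30 Fos-negative cells right of it; colour gives the range of Crym, high (over 10 RPKM) or low, in bars and in the dots beneath. Both Crym colours occur on both sides of the line.

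Fos-positive cells detected more genes in general, which touches every comparison below. They had 3862 to 6476 genes at 1 RPKM or more, with a median of 5482, against 3610 to 6510 and a median of 4998.5 in Fos-negative cells. Relative depth was alike, at a median of 0.987 in Fos-positive and 1.03 in Fos-negative cells. Comparisons use the difference in mean log2(RPKM + 1), Fos-positive minus Fos-negative, for 10245 genes other than Fos found at 1 RPKM or more in at least 5 cells. This scale understates the change of low genes. A difference of 1 or more was reached upward by 673 genes (6.57%) and downward by 188 (1.84%), and the median over all genes was 0.10. After removal of each gene's trend with genes detected per cell the split was even, with 341 higher and 327 lower and a median of -0.01. How far genes detected accounts for a difference at any one gene was not tested.

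The other immediate early transcription factors found in 5 or more cells leaned the same way as Fos. Only Egr1 differed by 1 or more. Of 21 in the table, 12 were found in 5 or more cells: 1 was higher by 1 or more (8.33%, against 6.57% of all genes), none lower, and 10 lay above 0, beside 58.5% of all genes, with a median difference of 0.67. Without the trend in genes detected the median was 0.43. The lean depends on that filter, since the 9 factors found in fewer cells went both ways. Fosl2, Egr2, Atf3, Nr4a1, Csrnp1 and Ier5l lay below 0, and Ier5, Maff and Mafk above it. Klf4 passed the filter with 5 cells, all Fos-positive, while Csrnp1, in 4 Fos-negative cells, did not. Fos-positive cells had 3 to 10 of the 21 genes at 1 RPKM or more (median 6), and Fos-negative cells 1 to 9 (median 4). The groups therefore overlapped over most of their range.

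Egr1, a zinc finger factor switched on through the same serum response pathway as Fos, had the widest difference of these genes. It stood at 0 in the lowest, 2.21 in the median and 308 RPKM in the highest Fos-positive cell, against 0, 0.152 and 80.9 RPKM in Fos-negative cells, a difference of 1.87. It reached 1 RPKM in 10 Fos-positive and 7 Fos-negative cells, where detection independent of Fos would place 6.59 of the 17 among the Fos-positive cells. High Fos did not always come with Egr1: cell 14 had 308 RPKM and cell 39 had 132, while cell 20 had none beside 139 RPKM of Fos. Conversely cell 38, lowest in Fos among the Fos-positive cells, had 114 RPKM of Egr1, and the Fos-negative cells 41 and 36 had 80.9 and 42.4.

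The AP-1 partners of Fos differed from each other. Jun, the classical partner, was as frequent without Fos as with it in this division of the cells. It was found in 11 of 19 Fos-positive cells, with a group median of 1.43 and up to 51.2 RPKM. Among Fos-negative cells it was found in 18 of 30, with a group median of 2.33 and up to 47.1 RPKM. The Jun difference was 0.23, or 0.76 at a Fos threshold of 10 RPKM. Jund, which restrains growth in many cells, was found in 8 Fos-positive cells up to 6.67 RPKM and in 2 Fos-negative cells up to 3.57 RPKM, where independence would give 3.88 of the 10 with Fos. Its levels were low throughout and its difference was 0.42. Fosb, a relative of Fos, reached 1 RPKM in 7 Fos-positive cells and 4 Fos-negative cells, with highest values of 59.8 and 30.9 RPKM and a difference of 0.72.

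Klf4 and Ier5 were at 1 RPKM or more in Fos-positive cells alone among these 49, as were Tnfaip3 and Mafk, in 2 and 1 cells. Other immediate early genes were so in Fos-negative cells alone, among them Csrnp1 and Pim1, in 4 cells each. The share of all genes in as few cells that were confined to 1 group was not computed. These patterns therefore describe these cells only. Klf4, a zinc finger factor induced by serum, was at 1 RPKM or more in 5 Fos-positive cells and no Fos-negative cell (0 of 30, which allows a share of up to 10.0%). It stood at 21.1 RPKM in cell 13, 17.3 in cell 11, 3.05 in cell 19, 1.99 in cell 14 and 1.35 in cell 38, against at most 0.467 RPKM in the Fos-negative cells. The highest Fos values and the highest Klf4 values thus shared cells 11 and 13, while cell 38 was lowest in Fos among the Fos-positive cells. Ier5, a regulator of the heat shock factor, was at 1 RPKM or more in 4 Fos-positive cells, up to 11.3 RPKM, and was listed at 0 in all Fos-negative cells. Independent detection would place 1.94 of 5 and 1.55 of 4 cells in the Fos-positive group.

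The remaining factors differed by less than 1 in either direction, some by more than the factors above. Klf6 was found in 17 Fos-positive cells at a median of 17.7 RPKM and in 25 Fos-negative cells at a median of 2.15 RPKM (difference 0.87, or 1.04 at a Fos threshold of 5 RPKM and 0.49 without the trend in genes detected), yet its highest value, 167 RPKM, was in a Fos-negative cell. Ier2 had medians of 6.81 and 2.31 RPKM in Fos-positive and Fos-negative cells (0.75). The cyclic AMP modulator Crem, in 9 Fos-positive and 5 Fos-negative cells, differed by 0.77, and Srf, the serum response factor itself, in 12 and 12 cells, by 0.63. Myc, a growth-promoting factor, went slightly the other way, with 8 Fos-positive cells and 17 Fos-negative cells and a difference of -0.23, which was -1.11 at a Fos threshold of 10 RPKM. Nr4a2 differed by 0.08 and Klf10 by -0.20. Some classical stress factors were found only outside the Fos-positive cells, each in few cells. Atf3 was in cell 22 at 35.6 RPKM, Nr4a1 in cell 34 at 173 RPKM and Egr2 in 1 cell at 11.2 RPKM. Csrnp1 was in 4 cells up to 56.6 RPKM. Independence would place only 0.39 of 1 cell, or 1.55 of 4 for Csrnp1, in the Fos-positive group. Their absence there therefore says little about these factors. Fosl2, Maff, Mafk and Ier5l were each found in 1 to 4 cells. Junb, Fosl1, Egr3, Egr4, Nr4a3, Klf2 and Bhlhe40 were not analysed here.

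Feedback and signalling genes of the same response, which encode phosphatases, mRNA decay factors and survival proteins, differed little as a list. Of 31 in the table, 21 were found in 5 or more cells: 2 were higher by 1 or more (9.52%, against 6.57% of all genes), none lower, and 16 lay above 0 (beside 58.5% of all genes), with a median of 0.15, close to the 0.10 of all genes. The count above 0 depends on that filter, since most members found in fewer cells lay below 0. Among the 21, 17 shared more cells with Fos than independence would give, beside 8 of 12 transcription factors. Of all genes, 59.3% did so too. Among all immediate early genes other than Fos, Fos-positive cells had 10 to 23 at 1 RPKM or more (median 16) and Fos-negative cells 6 to 21 (median 13).

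Ppp1r15a and Mcl1 were the members past a difference of 1. Ppp1r15a (Gadd34), a phosphatase subunit that restarts translation after stress, was found in 12 Fos-positive cells, with a median of 4.31 and a highest value of 140 RPKM, and in 8 Fos-negative cells, with a median of 0.166 and a highest value of 217 RPKM, a difference of 1.34. The ranges overlapped fully at the top. Mcl1, a short-lived survival protein of the Bcl2 family, had medians of 12.5 and 5.13 RPKM in Fos-positive and Fos-negative cells and highest values of 131 and 57.9, a difference of 1.12. That difference depended on where Fos was divided: with every nonzero Fos value counted as positive it was 0.25, and within the cells low in Crym it was 0.30.

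Other feedback genes differed by less than 1 at the threshold of 1 RPKM. Nfkbia, the inhibitor of NF-kappaB, had medians of 11.7 and 8.15 RPKM in Fos-positive and Fos-negative cells (0.83, or 1.11 without the shallow cells 3 and 7). Dusp1, the phosphatase that switches the kinases off and is induced with Fos, was found in 10 Fos-positive cells up to 46.3 RPKM and in 10 Fos-negative cells up to 63.2 RPKM (0.49). Zfp36, which destroys AU-rich mRNAs such as that of Fos, was found in 5 Fos-positive and 7 Fos-negative cells (0.50, or 1.34 at a Fos threshold of 10 RPKM). Btg1 and Zfp36l1 were found in every cell of both groups. Plk2 differed by 0.10 and the phosphatase gene Dusp5 by -0.51, with Dusp5 in 1 Fos-positive and 5 Fos-negative cells. Dusp4, Zfp36l2, Btg2, Cyr61, Rhob, Trib1, Per1, Nfkbiz, Errfi1, Sik1, Gadd45a and Gadd45g lay between -0.48 and 0.33. Dusp2, Ier3, Ctgf, Sgk1, Socs3, Cxcl1, Plk3, Tnfaip3, Pim1 and Gadd45b were each found in 1 to 4 cells. Of these, only Ier3 and Tnfaip3 had a higher mean in Fos-positive cells, and the others had a lower one. Ptgs2, Arc and Ccl2 were not analysed here.

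**Figure D2:**
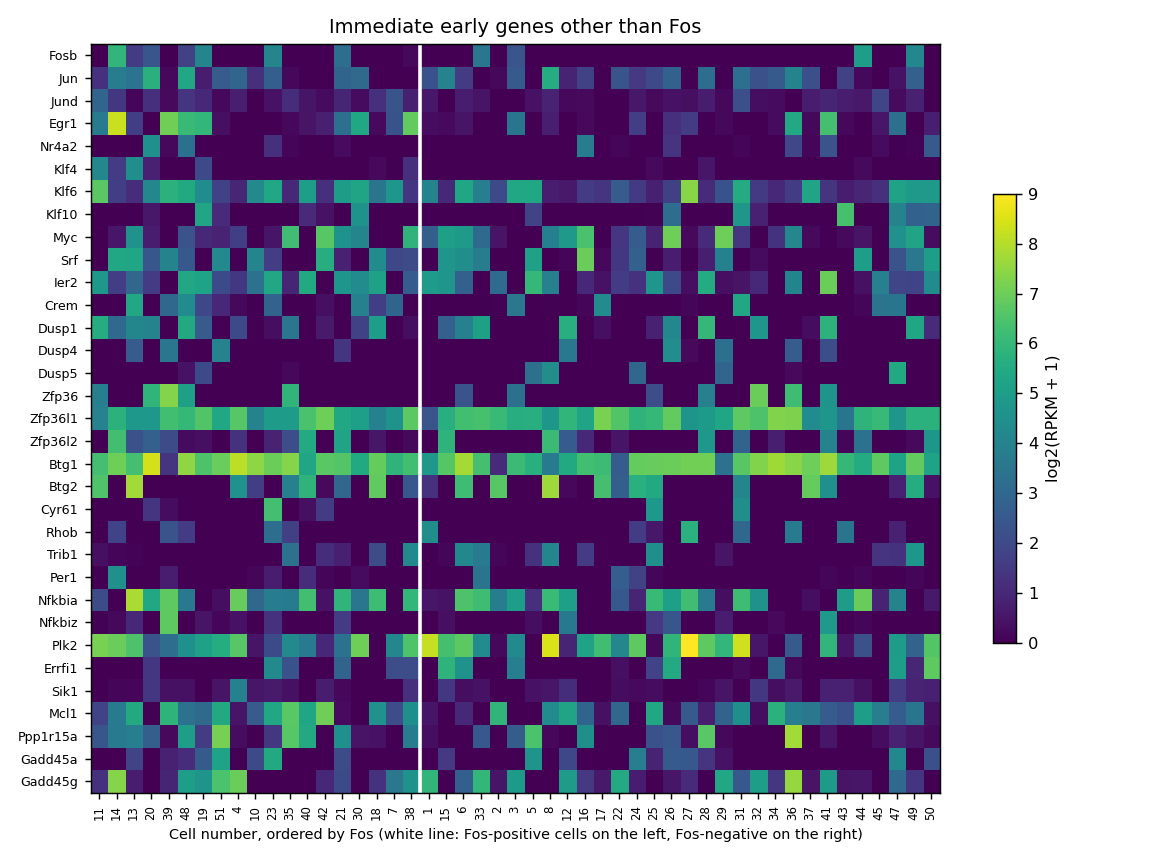
Immediate early genes other than Fos that were found in 5 or more cells (rows) in each cell (columns) as log2(RPKM + 1), with cells ordered by Fos and the Fos-positive cells left of the white line. The rows are patchy on both sides; Klf4 is nearly confined to the left, and Btg1 and Zfp36l1 are present throughout.

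Growth factor readouts did not share 1 direction. Of 11 targets of receptor tyrosine kinase signalling, 1 was higher by 1 or more (9.09%, against 6.57% of all genes) and none lower. Above 0 lay 7, beside 58.5% of all genes, and below it 4. The median difference was 0.28, or 0.00 without the trend in genes detected. Spry2, an inhibitor that receptor signalling induces against itself, was found in all 19 Fos-positive cells, at 2.05 RPKM in the lowest, 32.4 in the median and 140 in the highest, against 27 of 30 Fos-negative cells at 0, 15.8 and 50.1 RPKM, a difference of 1.10. The groups overlapped below that level, and 6 Fos-positive cells lay above the highest Fos-negative cell. The Spry2 difference was 0.99 without the trend in genes detected and 0.73 within the cells high in Crym. Dusp6, the phosphatase of Erk, went the other way, with 14 Fos-positive and 26 Fos-negative cells and a difference of -0.33, as did the Ets factor Etv5 at -0.56. Etv1, in 8 Fos-positive and 7 Fos-negative cells, was at 0.88, Spred1 at 0.56, Etv4 at 0.55 and the cyclin Ccnd1 at 0.68.

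Among 10 growth factor receptors found in 5 or more cells, none reached a difference of 1 in either direction, and the median was 0.35. Fgfr2 came closest, on the lower side at -0.99, with 10 of 19 Fos-positive cells at a median of 2.46 RPKM and 22 of 30 Fos-negative cells at a median of 7.96 RPKM. Pdgfra, a receptor of stroma, was the highest, at 0.82, with medians of 6.56 and 0.20 RPKM in Fos-positive and Fos-negative cells. Fgfr1 was widespread in both, at medians of 43.0 and 27.6 RPKM.

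Heat shock and unfolded protein genes, read as a sign of damage, did not separate the groups when taken as a single list. Of 19 such genes 1 was higher by 1 or more (5.26%, against 6.57% of all genes), none lower, 10 lay above and 9 below 0, and the median of 0.19 was 0.01 without the trend in genes detected. The 1 gene was Xbp1, a factor of the unfolded protein response, in 8 Fos-positive and 11 Fos-negative cells (1.05, or 0.54 without the trend). Other genes of that response leaned upward by less than 1: Hspa5 at 0.64, Pdia4 and Atf4 at 0.51, Hsp90b1 at 0.41 and Calr at 0.24. Ddit3 was at -0.12. Without the trend these genes lay between -0.27 (Ddit3) and 0.39 (Hspa5). The abundant chaperone Hspa8 had medians of 1749.5 and 1452 RPKM in Fos-positive and Fos-negative cells (0.25), Hsp90aa1 343 and 406 (-0.27), and Hsph1 was lower at -0.96. The inducible Hspa1a and Hspa1b were not analysed here. None of 6 p53 targets reached a difference of 1, and their median was 0.00.

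Fos was found at much the same rate on both sides of the Crym division. Crym, the mu-crystallin gene whose sequences drive the reporter, lay either above or below 10 RPKM with a wide gap. Of the 30 cells in its high range 12 were Fos-positive (40.0%, interval 22.7 to 59.4%), and of the 19 in its low range 7 were (36.8%, interval 16.3 to 61.6%). Independence would give 11.6 and 7.37 cells. The 2 cells highest in Fos, cells 11 and 14, were low in Crym, yet cells 13 and 20 next to them were high. Fos reached 140 RPKM in the high range and 297 in the low range, with medians of 39.8 and 47.2 RPKM in the Fos-positive cells of each.

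The median difference of the immediate early transcription factors lay above 0 within each range of Crym. It was 0.51 among the cells high in Crym (12 Fos-positive, 18 Fos-negative). Among those low in Crym it was 0.81 (7 Fos-positive, 12 Fos-negative). Egr1 differed by 1.01 in the high range and by 3.26 in the low range, and Dusp1 reached 1.76 in the low range. Medians of the feedback genes were 0.17 and -0.09 in the high and low ranges, and those of the growth factor targets 0.03 and 1.28. Whether the ranges differ was not tested, and the low range rests on few cells.

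By the regulators of cell identity, the shares differed by more but their intervals overlapped. Six2, which keeps nephron progenitors from differentiating, was at 1 RPKM or more in 27 cells, of which 9 were Fos-positive (33.3%, interval 16.5 to 54.0%), against 10 of the 22 cells without Six2 (45.5%, interval 24.4 to 67.8%). Foxd1, the factor of the stromal lineage, was found in 24 cells, of which 11 were Fos-positive (45.8%, interval 25.6 to 67.2%), against 8 of 25 without it (32.0%, interval 14.9 to 53.5%). Cells with Foxd1 and no Six2 were Fos-positive in 8 of 15 cases, those with Six2 and no Foxd1 in 6 of 18, those with both in 3 of 9 and those with neither in 2 of 7. At a Fos threshold of 10 RPKM the order was the other way round: 29.6% of cells with Six2 and 22.7% of those without were then positive, and 25.0% of cells with Foxd1 and 28.0% of those without. The level of Fos behaved likewise, since in Fos-positive cells its median was 14.8 RPKM with Foxd1 and 78.9 RPKM without it.

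As a list, nephron progenitor genes lay evenly around 0 and stroma genes leaned upward in Fos-positive cells. Of 14 nephron progenitor genes 1 was higher by 1 or more (7.14%, against 6.57% of all genes) and none lower, 7 lay above and 7 below 0, with a median of 0.06, or -0.11 without the trend in genes detected. The 1 gene was the homeobox gene Meox1, in 14 Fos-positive cells at a median of 30.3 RPKM and 16 Fos-negative cells at a median of 1.64 RPKM (1.17). Meox1 was at 0.98 without cells 25 and 27, described below. Mean log2 levels of Six2 were 2.73 in both groups. Wt1 differed by -0.34, Eya1 by -0.45 and Sall1 by 0.75. Of 16 stroma genes 1 was higher by 1 or more and none lower, and 13 lay above 0 (beside 58.5% of all genes), with a median of 0.50, or 0.31 without the trend in genes detected. The called share, 6.25%, was no higher than the 6.57% of all genes. The called gene was Aldh1a2, the enzyme that makes retinoic acid, at medians of 39.3 and 3.27 RPKM in Fos-positive and Fos-negative cells (1.65, or 1.13 without the trend). The collagen gene Col1a1 differed by 0.90, the chemokine gene Cxcl12 by 0.88 and the homeobox gene Meis1 by 0.63, while Foxd1 differed by 0.06 and the matrix gene Ecm1 by -0.95.

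The upward lean of the stroma list did not hold at a Fos threshold of 10 RPKM. That threshold keeps 13 cells as positive and moves the Fos-positive cells below it into the comparison group. How much of the shift came from the changed comparison group was not tested. The stroma median was then 0.06 and the nephron progenitor median 0.41. Aldh1a2 then differed by 0.51 and Six2 by 1.08. In the main division Fos-positive cells had 3 to 14 of 17 stroma genes (median 10) and 3 to 12 of 15 nephron progenitor genes (median 7); Fos-negative cells had 1 to 15 (median 6) and 1 to 12 (median 8).

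Genes of other cell types were found in Fos-positive cells singly or in pairs. The cell with ureteric bud genes, cell 25, with 10 of 11 such genes, and the cell with endothelial genes, cell 27, with 8 of 8 analysed, were both Fos-negative and at 0 for Fos. Fos-positive cells had at most 2 ureteric bud genes and 1 endothelial gene, some at high levels: Gata3 was found in 4 of them up to 146 RPKM, Emcn in 2 up to 39.9, Epcam in 1 at 26.4 and Wnt11 in 1 at 21.3 RPKM. The erythroid gene Alas2 was found in 3 Fos-positive cells up to 4.15 RPKM and 4 Fos-negative cells up to 34.0 RPKM. The part of these genes in the differences was not tested. Of 11 macrophage genes only Laptm5 and Fcer1g were analysed, with highest values of 0.424 and 1.56 RPKM in Fos-positive cells against 46.2 and 41.1 RPKM in Fos-negative cells. Cell 27, the one with endothelial genes, was the only Fos-negative cell with either at 1 RPKM or more, and the other defining markers were not analysed. The column names carry 1 run, 1 lane and an index number. Cells grouped by the first digit of that number (1, 2, 6, 7 and 8), which no label calls a batch, were Fos-positive in 3 of 10, 2 of 10, 5 of 10, 4 of 9 and 5 of 10 cases.

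**Figure D3:**
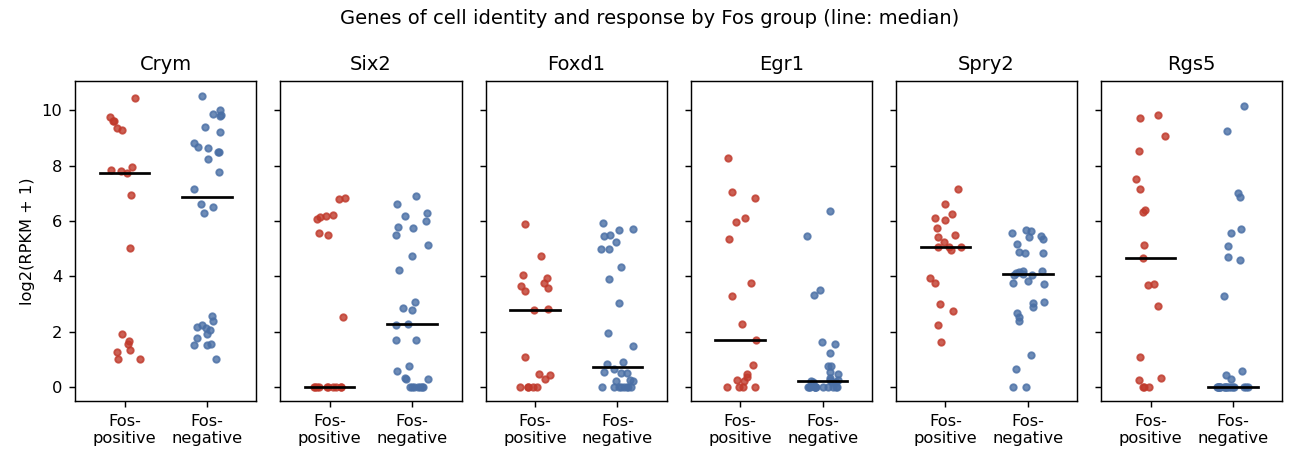
Per cell levels as log2(RPKM + 1) of Crym, Six2 and Foxd1 (cell identity), Egr1 and Spry2 (response) and Rgs5, with Fos-positive cells left and Fos-negative cells right in each panel and the median as a line. Crym divides into a high and a low range in both groups, and every panel shows overlap.

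Rgs5, a regulator of G protein signalling known from pericytes and named here as 1 of the 15 widest differences, differed more than any immediate early gene in this division of the cells. At a Fos threshold of 10 RPKM it was at 1.72, below Ppp1r15a at 1.79. Rgs5 was found in 14 of 19 Fos-positive cells at a median of 24.6 RPKM and up to 913, against 10 of 30 Fos-negative cells at a median of 0 and up to 1147 RPKM, a difference of 2.42. Of the 24 cells with Rgs5, 58.3% were Fos-positive (interval 36.6 to 77.9%), and of the 25 without it, 20.0% were (interval 6.83 to 40.7%). Yet the 5 Fos-positive cells without Rgs5 were all rich in Fos, at 50.6 to 140 RPKM. Rgs5 was named for its wide difference, and the intervals do not allow for that choice.

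Genes of the G2 and mitosis phases were higher in Fos-positive cells together with genes detected. Of 45 such genes 13 were higher by 1 or more (28.9%, against 6.57% of all genes) and none lower, 42 lay above 0, and the median was 0.82. At a Fos threshold of 10 RPKM the median was 0.44. Examples are Tpx2, a spindle assembly factor, at 1.72, the mitotic kinase Aurka at 1.49 and the ubiquitin carrier Ube2c at 1.36, with Ube2c medians of 177 and 3.88 RPKM in Fos-positive and Fos-negative cells. Fos-positive cells had 9 to 45 of these genes at 1 RPKM or more (median 31) and Fos-negative cells 4 to 45 (median 21), so both groups ran from few to all. Without the trend in genes detected the median was 0.22 and 1 gene, the chromatin insulator gene Ctcf, remained at 1 or more (1.32). Of 41 genes of G1 and S phase, 3 were higher by 1 or more (7.32%, against 6.57% of all genes) and 1 lower, and the median was 0.20. Within the cells high in Crym, however, their median was 0.68, above the 0.56 of the G2 and mitosis genes there, and within those low in Crym it was -0.29, against 1.22. The replication helicase gene Mcm7 was lower at -1.24, with medians of 77.9 and 151 RPKM in Fos-positive and Fos-negative cells. Of 12 housekeeping genes none differed by 1, and their median was -0.06.

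**Figure D4:**
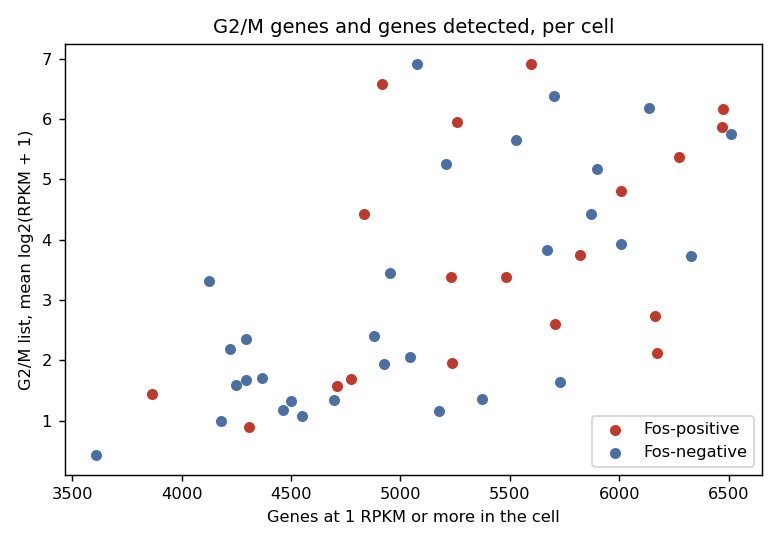
Each cell's mean log2(RPKM + 1) over the 45 G2 and mitosis genes against its number of genes at 1 RPKM or more, Fos-positive cells in red and Fos-negative cells in blue. Cells with more genes detected tended to have higher values in both groups, and at a given number of genes the colours overlap.

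**Figure D5:**
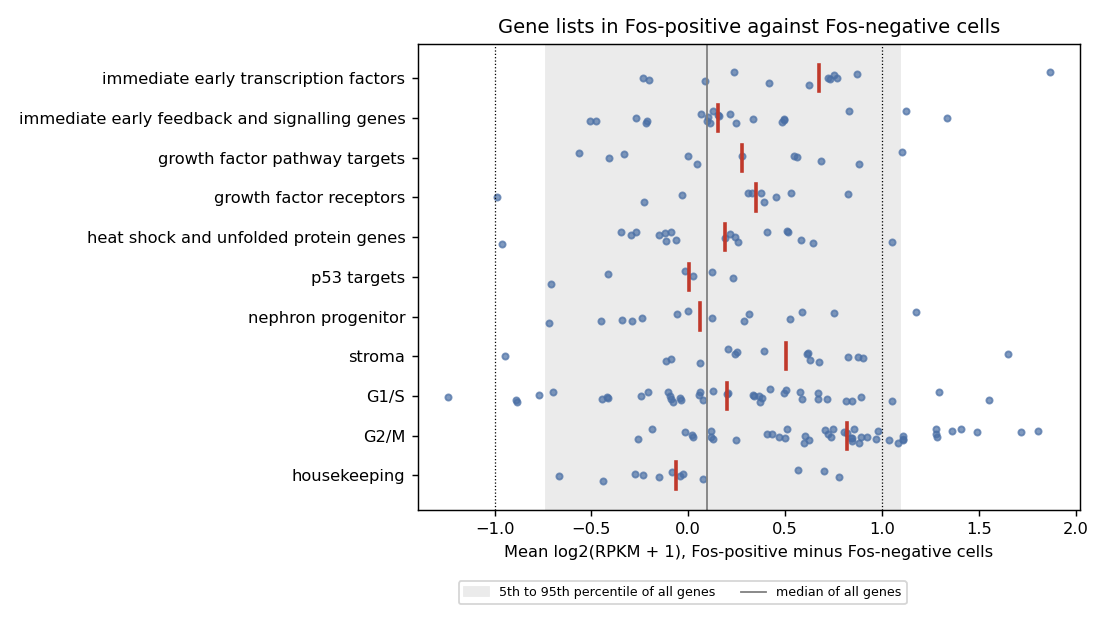
Difference in mean log2(RPKM + 1), Fos-positive minus Fos-negative, for each gene of the lists (points; red bar, list median), with the median of all genes as a grey line, their 5th to 95th percentiles (-0.74 to 1.09) shaded and differences of 1 and -1 dotted. Only genes found in 5 or more cells are shown. The G2/M and immediate early transcription factor lists lie furthest to the right.

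The genes that differed most were not on the immediate early lists used here, and other sets of induced genes were not searched. Mir763 led at 2.94, but it lies inside Hmga2 on chromosome 10 (Mir763 at 119885047 to 119885166, Hmga2 at 119798331 to 119913991, mm9), and the libraries keep no strand, so reads of the host cannot be told apart from reads of the microRNA. Hmga2, named for this reason after its values were seen, was found in all cells at medians of 388 and 373 RPKM in Fos-positive and Fos-negative cells (0.12). After Mir763 and Rgs5 came the signalosome subunit gene Gps1 at 2.32, with 201 and 37.0 RPKM as medians in Fos-positive and Fos-negative cells, the haem synthesis gene Alad at 2.31, the membrane raft gene Flot1 at 2.31 and the collagen chaperone gene Fkbp10 at 2.26. Plin2, which coats lipid droplets, was found in 19 of 19 Fos-positive cells at a median of 34.9 RPKM and in 14 of 30 Fos-negative cells at a median of 0.754 RPKM (2.17). Ndufaf2, Coq9, Commd5, Litaf, Nelf, Tm2d1, Eif2b3 and 4833439L19Rik completed the 15 highest, at 2.00 to 2.25.

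On the lower side the widest differences were those of Snap47, a membrane fusion gene, at -2.40, and the dynein light chain gene Dnalc4 at -2.25. Snap47 had medians of 6.39 and 93.2 RPKM in Fos-positive and Fos-negative cells. The 14-3-3 genes Ywhag and Ywhah were both among the 15 lowest, at -2.11 and -2.09, with Ywhah medians of 19.5 and 78.2 RPKM. Igfbp5, which binds insulin-like growth factors, was at -1.92 with 8 Fos-positive and 21 Fos-negative cells. Ebna1bp2, Nme6, M6pr, Asl, Rchy1, Wdr83, Zfp2, 2610029I01Rik, 5730437N04Rik and Eif1a lay between -2.10 and -1.73. Extremes picked among 10245 genes are a description of these cells.

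Genes whose level ranked most like that of Fos over the 49 cells were Smurf2, a ubiquitin ligase of the TGF-beta pathway (Spearman 0.53), Spry2 and Gps1 (0.48 each), Harbi1, Phrf1, Ctbp2, Nelf, 6330503K22Rik, Commd5 and Zfp781 (0.47 to 0.48). These values are weak, were the highest of all genes found in 10 or more cells, and share each cell's depth and genes detected. Spry2 was the 1 member of the response lists among them. Spry2 and Smurf2 stood at medians of 32.4 and 5.28 RPKM in Fos-positive cells, against 15.8 and 0.351 RPKM in Fos-negative cells.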

How the data were processed

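RNA-seq libraries of 49 single cells, captured and amplified with SMARTer chemistry and fragmented with Nextera per the labels' protocols, were read from 1 table of 13093 genes. Per the file headers these are RPKM, made by the authors; a further deposited column gives the number of cells above 3 RPKM, which matched the values in every gene. The submitters' processing notes list TopHat 1.4.1, DESeq and mm9 without a role or order. The read counter, the annotation and whether coordinates count from 0 or 1 were not given in the sources used here. Libraries of this kind hold neither strand nor molecular identifiers, so PCR copies are counted, and a 0 can be a missed transcript. Doublets were left to the submitters' microscope record of the chambers. No cell was filtered, 0 columns of values per cell were left unused, and 26 symbols on more than 1 row were kept apart by gene ID.

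Cells were divided at Fos of 1 RPKM. Total reads are not in the table; relative depth came from the steps between low values of genes below 8 RPKM, where the densest window of ratios to cell 1 rested on 63 genes or more per cell. The comparison was the difference in mean log2(RPKM + 1), a pseudocount of 1, for genes at 1 RPKM or more in 5 or more cells, called at 1 (a 2-fold difference on this scale). Expected shared cells are the product of both counts over 49. Shares carry exact (Clopper-Pearson) 95% intervals for counting error only, and 0 is read as up to 3 cells. The trend was removed per gene by a straight line on genes detected per cell. Depth estimation and the comparison were first tested on simulated data. Scripts used Python 3.11.15, numpy 2.4.6, pandas 2.3.3, scipy 1.17.1 and matplotlib 3.10.9.

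The members, gene lists and tests were chosen with earlier results of these data known. Genes were named by rule: list members (immediate early lists in full, up to 8 of others), the 15 widest differences in each direction with the same sign without cells 3 and 7, and the 10 genes ranked most like Fos in 10 or more cells. Alternatives were other Fos thresholds, pseudocount 0.1, other filters, detection at 5 RPKM, removal of the trend, cells within each Crym range, and leaving out cells 3 and 7 or 25 and 27; counting cell 7 as Fos-negative was added after the data were seen. Promoter windows came from RefSeq sequence of another build than the table and were matched by symbol.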

Additional observations from a re-analysis of the deposited data

How the results depend on the processing

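Of the genes recomputed under the alternatives, which leave out the G2/M and G1/S genes and most of those ranked like Fos, none with a difference of 1 or more changed sign; smaller list medians did, such as that of G1/S genes, at 0.68 within the high and -0.29 within the low range of Crym. At a Fos threshold of 10 RPKM the median difference was 0.41 for nephron progenitor, 0.062 for stroma and 0.44 for G2/M genes, and the Fos-positive share was 22.7% without Six2 and 25.0% with Foxd1. With every nonzero Fos value counted as positive the stroma median was 0.23. With pseudocount 0.1, 1797 genes were higher and 671 lower, and the medians were 1.10 for immediate early transcription factors, 0.42 for feedback genes and 1.08 for G2/M genes. With the trend in genes detected removed, 341 were higher and 327 lower, and the G2/M median was 0.22. Within the high range of Crym 500 genes were lower and the G2/M median was 0.56. Within the low range, which has fewer cells, 1461 were higher and 817 lower, with medians of 0.49 for nephron progenitor, 0.78 for stroma and 1.22 for G2/M genes. The cause of these shifts was not tested, and list medians that moved by under 0.25 are counted as the same. Thresholds of 3 and 5 RPKM, leaving out cells 3 and 7 or cells 25 and 27, and counting cell 7 as Fos-negative (added after the data were seen) moved no count of genes by over 1.5 times, no list median by 0.25 and no share beyond its counting interval, where recomputed; the genes higher numbered 774 without cells 3 and 7 and the genes lower 233 at 5 RPKM. Among named genes, Xbp1 was at 0.54 with the trend removed and Ppp1r15a at 0.91 with every nonzero Fos value as positive. No paired analysis was possible because all cells belong to 1 group, share no replicate numbers across groups and were given no test. Having 49 cells of 1 sample limits the precision throughout: shares carry intervals that overlap between the classes compared, and the spread between embryos is unknown.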

Other observations

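Nr2f2, a nuclear receptor gene of mesenchyme named after its values were seen, was found in every cell and stood at 130 RPKM in the lowest, 313 in the median and 565 in the highest Fos-positive cell, against 19.3, 184 and 405 RPKM in Fos-negative cells, a difference of 0.69 in mean log2(RPKM + 1). Its ranges overlapped.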
